A study of Mus musculus with 7 samples.

Results

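The genes described here are 6 members of the mouse Ifi200 family of interferon-inducible DNA sensors, Aim2, Ifi204, Ifi209, Mndal, Ifi203 and Ifi207. They were chosen by name, with their values in these libraries already known, and each name matched 1 of the 49585 gene rows of the count tables. RNA was measured in MS-1 cells, an endothelial cell line derived from mouse pancreatic islets. The 3 control libraries carry a wild-type genotype label and the 4 others an overexpression label for LPL, lipoprotein lipase, which hydrolyses the triglycerides of plasma lipoproteins. All 7 libraries came from the same line, grown in DMEM, and were made with a stranded total-RNA kit. The labels used here do not say how LPL was introduced, from which species, whether the controls carried a vector, or whether the replicates are separate cultures, so the spread between libraries may be partly technical. Because the choice of the 6 genes used this contrast, their values are given below as a description, without a test.

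Ifi200 proteins carry a C-terminal HIN domain that binds double-stranded DNA, and most also carry an N-terminal pyrin domain through which they assemble with partner proteins. Aim2 joins cytosolic DNA to the adaptor ASC, the product of Pycard, and so activates caspase-1 in an inflammasome that matures interleukin-1β and interleukin-18. Ifi204 has been described as a DNA sensor that signals through STING to type I interferon, and several relatives have been studied as nuclear regulators of transcription and growth. In mouse the family lies in 1 cluster of duplicated genes, several members are induced by interferon, and the cluster differs between strains.

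The libraries held between 24328418 and 29210847 reads counted in the sense orientation of genes. Lpl had 8 reads over the 3 controls and 47212 over the 4 LPL overexpression libraries, in keeping with the labels. Endothelial markers were present in both groups, with a summed level of 7292 to 7393 CPM (reads per 1000000 counted) in controls and 5995 to 6136 with LPL overexpression, although Cldn5 had only 1 and 0 reads. Of the 11 endothelial markers tested, 8 fell and 2 rose, and Pecam1 fell by 0.40 on the log2 scale (SE 0.02, edgeR quasi-likelihood test with Benjamini-Hochberg adjustment over all genes, adjusted p = 9.25e-20). All 12 pigment cell markers rose, and their summed level was 18.2 to 19.4 CPM in controls and 1612 to 1706 CPM with LPL overexpression. Tyrp1, Dct and Mlana, which make melanin or sit in the melanosome, had 0 reads in every control. Every difference between the groups below therefore moved together with these markers, and their part in it was not tested. LPL overexpression replicate 4 stood apart from the 3 others at a small set of genes, described further on, which held none of the 6 family members.

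The 6 members lay on chromosome 1 of mm10, within 591.794 kb. Aim2 lies on the plus strand at chr1:173350879-173466040 and Ifi209 on the plus strand at chr1:173630917-173647928. The other 4 lie on the minus strand, Ifi207 at chr1:173723430-173741809, Ifi204 at chr1:173747293-173766943, Mndal at chr1:173857220-173942491 and Ifi203 at chr1:173920407-173942672. The long Mndal model spans Ifi211, a relative that was not among the 6, and reaches the start of Ifi203. In the GENCODE vM21 annotation Mndal and Ifi203 share 37 exonic bases, and no other exonic overlap involved a member. All values below are sums over the exons of a gene, with levels in TPM, transcripts per 1000000, a scale that allows for the exonic length of the gene. All 6 members passed the filter on low counts.

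**Figure D1:**
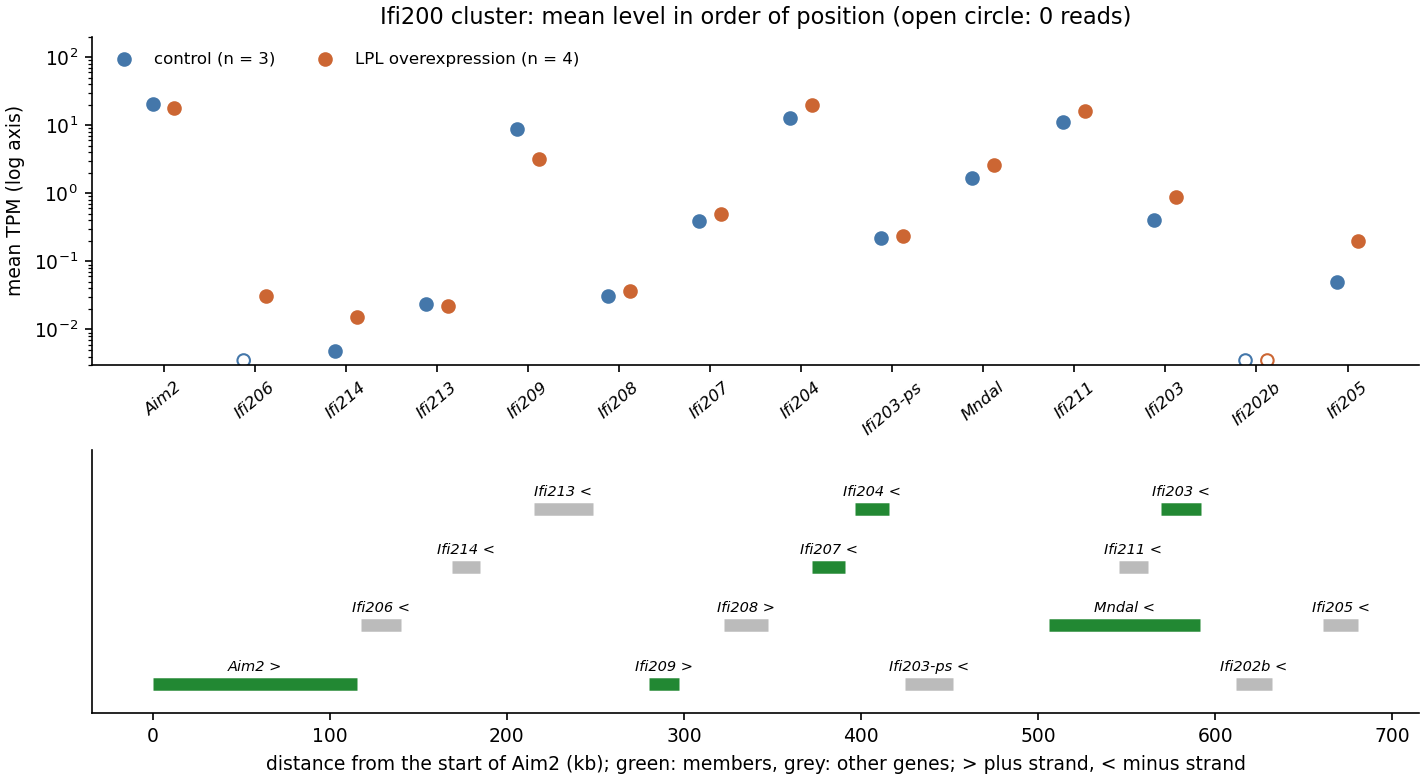
Mean level in TPM (log axis) of the Ifi200 family genes in order of position, in controls (blue, n = 3 libraries) and LPL overexpression (orange, n = 4), above a map of the cluster in kb from the start of Aim2 (green, members; grey, other genes). Open circles mark genes with 0 reads in a group; Ifi209 is the member whose 2 points lie furthest apart downward, between nearly silent neighbours on either side.

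Promoter sequences are shown because the family is known for its response to interferon. The stretches come from the RefSeq promoter windows on GRCm38.p6, which run from 250 bases before to 50 bases after a gene's start in RefSeq. That start can differ from the gene bounds given above. Of the 6 members 5 had a window, and Ifi204 had none. The core of the interferon-stimulated response element (ISRE), the site bound by the interferon-activated factor complex, was searched on both strands as GAAA, then 2 bases of any kind, then GAAA. It occurred in 3 of the 5 member promoters and in 9 of 12 family promoters, members included. Among these 9 were Ifi206, Ifi208, Ifi213 and Ifi214, which were close to silent in both groups. The core also occurred in 24 of 52 promoters (46.2%) of a list of type I interferon-induced genes, and in 3.99% of 27025 genes. The next lines give 30 bases around the core, 5′ to 3′ on the strand of the gene, with the core, or the bases aligned to it, in capitals.
Ifi203: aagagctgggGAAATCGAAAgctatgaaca
Mndal: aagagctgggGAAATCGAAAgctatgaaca
Ifi207: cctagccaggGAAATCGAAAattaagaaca
Ifi211: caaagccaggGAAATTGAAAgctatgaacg
Ifi214: agtctctgagGAAATCGAAAgcgatgcact
Ifi209: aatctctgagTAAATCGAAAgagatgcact
The positions are chr1:173942508-173942537 for Ifi203, chr1:173880204-173880233 for Mndal, chr1:173741831-173741860 for Ifi207, chr1:173913064-173913093 for Ifi211 and chr1:173536017-173536046 for Ifi214, all on the minus strand, and chr1:173630770-173630799 for Ifi209 on the plus strand. The Ifi203 and Mndal stretches are identical, and the whole windows that hold them were 97.6% identical over 289 aligned bases. Both genes had more than 1 window, and the stretches are from window 1 of Ifi203 and window 2 of Mndal. The Mndal stretch lies inside the Mndal model given above, and all 30 of its bases are exonic in GENCODE. Window 1 of Mndal held another match, TTTCTCTTTC, which is the core on the strand opposite to the gene, at position -54 of that window's start.

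Ifi209 lacked the core in its window by 1 base. Its promoter was 96% identical to that of Ifi214 over 299 aligned bases, and against the Ifi214 core it carried the substitution G1T, counted from 1 at the 5′ end of the core. Both aligned cores start 79 bases before the gene's start in RefSeq (position -79), which for Ifi209 is not the start given above. The Aim2 window held no match either. No match says only that these letters are absent from this window. The 250 bases before the Ifi209 start in RefSeq (chr1:173630609-173630858, plus strand, GRCm38.p6) are given because Ifi209 had the largest difference of the 6 members. The bases aligned to the core are in capitals.
Ifi209 upstream: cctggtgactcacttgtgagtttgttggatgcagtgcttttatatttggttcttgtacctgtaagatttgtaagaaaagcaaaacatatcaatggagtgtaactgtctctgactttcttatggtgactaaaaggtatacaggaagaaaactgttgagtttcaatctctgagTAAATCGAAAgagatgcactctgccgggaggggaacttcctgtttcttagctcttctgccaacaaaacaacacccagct
With a C required as 1 more letter at the 3′ end, no member promoter had a match, against 17 of the 52 interferon-induced genes (32.7%) and 0.944% of all genes. The gamma-activated site TTCNNNGAA, an element of the interferon-gamma response, had no match in the 5 member promoters and matched 9.55% of all genes.

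Among the 6 members single genes differed in opposite directions while the ranges of their sum overlapped. The summed level of the 6 members was 44.4 ± 0.683 TPM (SD, n = 3) in controls and 45.0 ± 1.04 TPM (SD, n = 4) with LPL overexpression, and the ranges of 43.6 to 44.8 and 43.7 to 46.2 TPM overlapped. The groups did not overlap for 5 of the 6 members, of which 3 were higher and 2 lower with LPL overexpression. Over all 13639 genes tested, 44.6% did not overlap, 22.8% higher and 21.8% lower, and because the members were chosen on this contrast nothing is read from their count. The median log2 fold change of the 6 was 0.43, and that of all genes tested was 0.00235. In bulk RNA, fewer cells of a type and less RNA per cell cannot be told apart.

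Aim2, the inflammasome sensor, was the most abundant member in controls. Its level was 20.5, 19.9 and 20.6 TPM in the 3 controls and 18.7, 18.4, 18.3 and 17.4 TPM in the 4 LPL overexpression libraries. All 4 of the latter lay under the controls, by a small margin. The counts behind these levels were 578 to 592 reads in controls and 485 to 576 with LPL overexpression. The log2 fold change was -0.19 (SE 0.05), a level 1.14-fold lower.

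Ifi204, the member linked to STING signalling, took the place of Aim2 as the most abundant member when LPL was overexpressed. Its level was 12.5, 13.4 and 12.3 TPM in controls and 19.7, 19.2, 20.6 and 19.1 TPM with LPL overexpression. The groups lay far apart relative to their spread, from 351 to 405 reads in controls and from 520 to 611 with LPL overexpression. This was a log2 fold change of 0.60 (SE 0.06), or 1.51-fold higher.

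Ifi209, a pyrin and HIN domain gene with a less well described function, had the largest difference of the 6. Its level was 8.86, 9.01 and 8.60 TPM in controls and 2.78, 3.92, 2.91 and 3.18 TPM with LPL overexpression. The counts were 258, 271 and 245 reads in controls and 73, 124, 78 and 94 with LPL overexpression, so that the highest LPL overexpression library, replicate 2, still had fewer reads than any control. The log2 fold change was -1.48 (SE 0.10), a level 2.79-fold lower. Of all 13639 genes tested, 19 (0.139%) had a more negative fold change.

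Mndal, the mouse relative of the human myeloid nuclear differentiation antigen gene, was expressed at a low level. It was at 2.19, 1.57 and 1.34 TPM in controls and at 2.28, 2.47, 2.76 and 2.82 TPM with LPL overexpression. The groups were only just apart, since control replicate 1 reached 62 reads and LPL overexpression replicate 1 had 58 from a smaller library. The log2 fold change was 0.57 (SE 0.16), a level 1.49-fold higher.

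Ifi203, which encodes a nuclear HIN domain protein, was at 0.454, 0.369 and 0.409 TPM in controls and at 0.987, 0.702, 0.867 and 0.929 TPM with LPL overexpression. All 4 LPL overexpression libraries lay above the controls, on 42 to 52 reads each against 21 to 25. The difference was 1.05 on the log2 scale (SE 0.20), or 2.07-fold higher.

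Ifi207, a HIN domain gene with many repeats between its domains, was near the limit of what this depth can measure, with 8, 15 and 11 reads in controls and 12, 13, 20 and 10 with LPL overexpression. Its level was 0.280, 0.508 and 0.394 TPM in controls and 0.466, 0.418, 0.759 and 0.344 TPM with LPL overexpression. The groups overlapped, and the log2 fold change of 0.28 was smaller than its SE of 0.33. A difference of this size was not detectable at this depth.

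**Figure D2:**
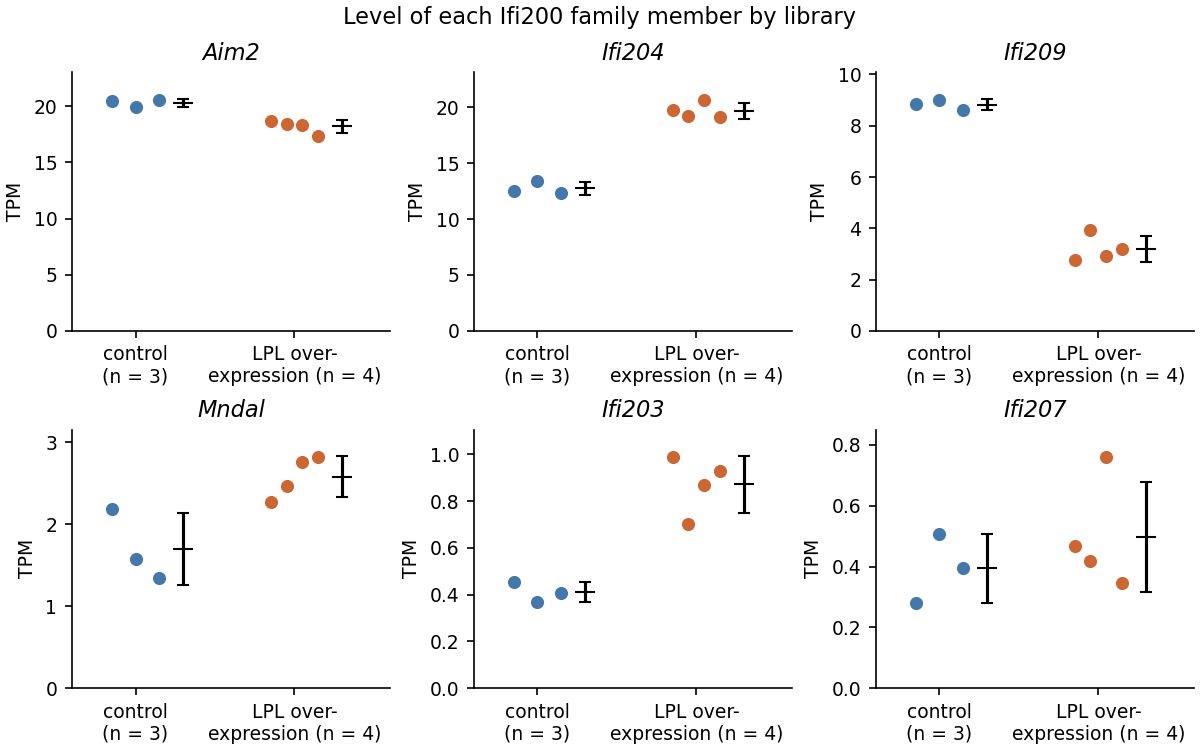
Level of each of the 6 members in TPM (linear axis from 0, a different scale in each panel) in every control (blue) and LPL overexpression library (orange); the horizontal tick and bar to the right of each group give the mean and SD. The groups are apart for Aim2, Ifi204, Ifi209, Mndal and Ifi203 and overlap for Ifi207.

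The order of the members by TPM, a scale per exonic length of the gene, changed at its upper end. Ifi203 has 6706 exonic bases, merged over 9 transcripts in GENCODE, against 3561 for Ifi204. Levels compared between genes therefore depend on the gene models. In controls the order was Aim2 at 20.3 ± 0.338, Ifi204 at 12.7 ± 0.594, Ifi209 at 8.82 ± 0.203, Mndal at 1.70 ± 0.441, Ifi203 at 0.411 ± 0.0425 and Ifi207 at 0.394 ± 0.114 TPM (SD, n = 3). Only the last pair of neighbours, Ifi203 and Ifi207, overlapped. With LPL overexpression the order was Ifi204 at 19.7 ± 0.703, Aim2 at 18.2 ± 0.593, Ifi209 at 3.20 ± 0.509, Mndal at 2.58 ± 0.255, Ifi203 at 0.871 ± 0.123 and Ifi207 at 0.497 ± 0.182 TPM (SD, n = 4). Here Ifi209 and Mndal overlapped, as did Ifi203 and Ifi207.

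As shares of the summed TPM of the 6 members, Ifi204 went from 28.7 ± 1.078% (SD, n = 3) in controls to 43.7 ± 0.854% (SD, n = 4) with LPL overexpression. Ifi209 went from 19.9 ± 0.197% to 7.10 ± 1.15%. Aim2 went from 45.8 ± 1.35% to 40.4 ± 0.968%. The 3 members of low abundance held small shares in both groups, with Mndal at 3.83% and 5.74%, Ifi203 at 0.925% and 1.94%, and Ifi207 at 0.887% and 1.098%. When the other family genes were added, the summed level was 56.0 ± 1.23 TPM in controls and 61.7 ± 1.62 TPM with LPL overexpression, and the ranges no longer overlapped.

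**Figure D3:**
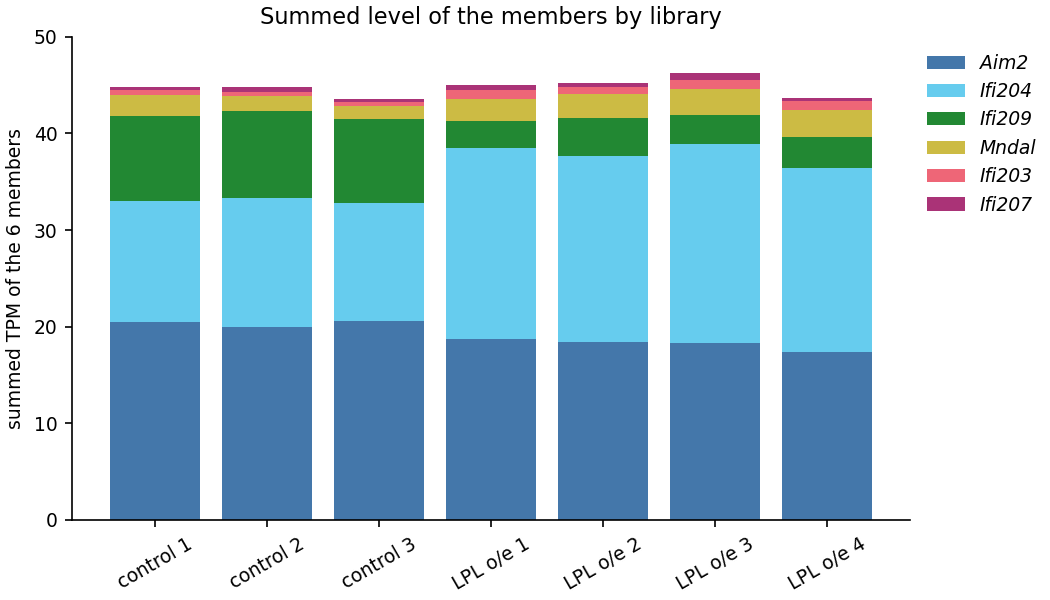
Summed TPM of the 6 members in each library, split by member (stacked bars from 0; "LPL o/e" is LPL overexpression). The bars have nearly the same height in all 7 libraries, while the Ifi204 block is larger and the Ifi209 block smaller in the 4 LPL overexpression libraries.

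Most of that addition was Ifi211, a relative that also rose. Its level was 9.82, 12.1 and 11.9 TPM in controls and 17.1, 16.4, 15.8 and 15.2 TPM with LPL overexpression, with every LPL overexpression library above every control. The log2 fold change was 0.49 (SE 0.09, edgeR quasi-likelihood test, adjusted p = 4.86e-06). Ifi205 had 5 reads over the 3 controls and 26 over the 4 LPL overexpression libraries, a ratio of 3.91 (95% counting interval 1.48 to 13.1). The remaining family genes were close to silent, with 0 reads for Ifi202b, 0 and 3 for Ifi206, 4 and 6 for Ifi208, 4 and 5 for Ifi213, 1 and 4 for Ifi214, and 12 and 16 for the pseudogene Ifi203-ps, in controls and LPL overexpression. Of 33 other gene rows between the outermost members or within 200 kb of them, 22 had 0 sense reads.

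Because family members are partial copies, reads can be split or lost between them. The share of 50-base words in a gene's annotated transcripts that also occur in another gene was 33.7% for Ifi209, 20% for Ifi204, 19.6% for Mndal, 12.4% for Ifi203, 7.29% for Ifi207 and 0.742% for Aim2. With 100-base words these shares were 16.9%, 10.7%, 6.38%, 2.84%, 0.79% and 0%. For Ifi209 the sharing was almost entirely with Ifi214 (33.4% of its 50-base words), and Ifi214 had 1 read over the controls and 4 over the LPL overexpression libraries. For Ifi204 the main partner was Ifi211 (14.8%), and Ifi211 itself shared 72.8% of its words, mostly with Ifi205 and Ifi204. The values of Ifi209, Ifi204, Ifi211, Mndal, Ifi203 and Ifi207 are therefore uncertain to the extent that the authors' counting split or dropped shared reads, while Aim2 is nearly free of this limit. The members had 0 or 1 read per library in the antisense orientation.

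The pathway downstream of the members was read from lists of known genes. On the DNA-sensing route to interferon, 17 of 20 genes were tested; 7 rose, 1 fell and the median log2 fold change was 0.08. Over all genes 43.2% passed the test, 21.9% higher and 21.3% lower. Tmem173, which encodes STING, the hub onto which cGAS and Ifi204 signal, was at 38.3, 39.2 and 39.0 CPM in controls and at 44.0, 42.0, 43.6 and 47.6 CPM with LPL overexpression, a log2 fold change of 0.19 (SE 0.04, edgeR adjusted p = 1.74e-04). Mb21d1, which encodes the DNA sensor cGAS, had a log2 fold change of -0.08 (edgeR adjusted p = 0.181). The kinase gene Tbk1 and the transcription factor gene Irf3 had log2 fold changes of -0.01 and 0.00 (adjusted p = 0.881 and 0.953). These 4 genes were picked as the core of the route after their values were seen. By the naming rule the leading genes were Tmem203, a STING partner, at 0.56, Dnase2a, a lysosomal DNase, at 0.40, and Rnaseh2c, a subunit of RNase H2, at 0.24 (edgeR adjusted p = 6.48e-07, 1.33e-07 and 2.33e-06).

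On the inflammasome side, where Aim2 acts, 10 of the 18 genes in the tables were tested, 5 rose and 1 fell, and the median was 0.13. Pycard, the gene of the adaptor ASC that Aim2 needs, had 0 reads in all 3 controls. In the LPL overexpression libraries it was at 3.82, 3.39, 3.09 and 3.60 CPM, 372 reads in all. Against the limit that a count of 0 allows over the controls (3 reads, 0.0372 CPM, counting error only), this was 93.4-fold higher. Casp1, the protease of the complex, had 0 and 12 reads, 3.01-fold higher against the same limit. These 2 folds leave out the counting error of the LPL overexpression reads, which matters most for the 12 reads of Casp1. Il18, the gene of a caspase-1 substrate, had 1 and 26 reads, a ratio of 19.6 (95% counting interval 3.22 to 803). Il1b had 0 reads in all 7 libraries. Casp1, Il18 and Il1b are named outside the naming rule. Casp4, the sensor protease of cytosolic lipopolysaccharide, rose from 9.03 to 13.4 CPM (log2 fold change 0.57, edgeR adjusted p = 1.83e-09), and Panx1, a membrane channel gene, rose by 1.61 on the log2 scale (SE 0.13, adjusted p = 1.29e-14). Nek7, an activator of the Nlrp3 inflammasome, fell by 0.42 (SE 0.02, adjusted p = 2.52e-20). Aim2 was lower, by 1.14-fold, in the same libraries in which reads of Pycard, Casp1 and Il18 appeared.

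Leukocytes express Pycard and Casp1, so leukocyte markers are given beside these values. Of 14 markers 3 were tested, 1 rose and 1 fell. The summed level was 74.2 to 79.2 CPM in controls and 96.2 to 105 CPM with LPL overexpression, nearly all of it Cd68, a lysosomal gene that rose by 0.40 on the log2 scale (adjusted p = 4.30e-14). The 11 markers not tested were at or near 0. Among them Adgre1, Tyrobp, Cd52 and Cd3e had 0 reads, and Ptprc had 4 and 2 reads, in controls and LPL overexpression. Coro1a, which was tested, had 169 and 180 reads, at 2.10 and 1.67 CPM (edgeR adjusted p = 0.117). Whether leukocytes contribute to the values of Pycard and Casp1 was not tested. Fcer1g was lower, at 0.557 and 0.306 CPM (adjusted p = 0.0326). Of 10 fibroblast and mural cell markers 4 were tested and 2 rose. These were Col1a2, with 2 and 139 reads, and Cspg4, with 1 and 84 reads, in controls and LPL overexpression. The summed level of all 10 markers was 5.45 to 6.16 CPM in controls and 8.60 to 9.45 CPM with LPL overexpression.

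The members were set beside other interferon-induced genes, since the family is itself interferon-inducible. Interferon genes were close to silent, with 47 reads for 12 genes over all 7 libraries, 4 to 8 reads per library, and 9 of the 12 at 0. Nearly all of these reads were of Ifne, with 16 over the controls and 27 over the LPL overexpression libraries. Ifne is named outside the naming rule. Of 24 genes for interferon receptors and signalling, 20 were tested, 7 rose and none fell, and the median was 0.10. Over all genes 21.9% passed as higher and 21.3% as lower. Without LPL overexpression replicate 4, 3 genes of this list fell, and rising genes numbered 6 to 8 over the fits without 1 library. Stat3, a cytokine-activated transcription factor gene, rose by 0.77 (edgeR adjusted p = 1.01e-23), and the receptor genes Il10rb and Ifngr2 rose by 0.49 and 0.27 (adjusted p = 1.54e-13 and 2.07e-08). Ptpn6, a phosphatase that dampens cytokine signalling, rose by 1.35 from a low level (adjusted p = 3.67e-06).

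Of 64 type I interferon-induced genes, 59 were tested, of which 38 were higher and 5 lower, and the median log2 fold change was 0.31. Lgals3bp, a secreted glycoprotein gene, rose by 2.82 (adjusted p = 1.21e-30), Ifi27 by 0.71 (adjusted p = 1.88e-20), Bst2, the gene of the antiviral protein tetherin, by 0.28 (adjusted p = 3.83e-13) and Rtp4 by 1.22 (adjusted p = 1.78e-08), all by edgeR's quasi-likelihood test. Mx1, an antiviral GTPase gene, had 2 reads over the controls and 48 over the LPL overexpression libraries, a ratio of 18.1 (95% counting interval 4.74 to 153). All 8 tested genes of the antiviral 2-5A pathway rose, with a median of 0.66. Among them were Oas1a at 0.85, Oas1g at 1.47, Oas3 at 0.97 and Oasl2 at 0.42. Of 17 tested MHC class I and antigen processing genes 8 passed as higher and 2 as lower (median 0.15), and B2m fell by 0.17 while H2-K1, Psmb8 and Psmb9 rose by 0.49, 0.52 and 0.64. Of 11 tested interferon-inducible GTPases Gbp2, Gbp3 and Gbp7 rose and Gbp9 fell by 0.59, and the list median was 0.36. Without LPL overexpression replicate 4, Gbp2 and Gbp3 did not pass the test, both with a log2 fold change of 0.18 (adjusted p = 0.152 and 0.112).

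These 4 interferon-induced lists together held 110 genes, of which 95 were tested, 57 passed as higher and 8 as lower, and the median log2 fold change was 0.32. Ifi204 at 0.60, Mndal at 0.57 and Ifi203 at 1.05 lay above that median, Ifi207 at 0.28 just under it, and Aim2 at -0.19 and Ifi209 at -1.48 lay on the other side of 0. None of the 95 had a fold change as negative as Ifi209, the lowest being Gbp4 at -0.70 (edgeR adjusted p = 0.0696). Gbp4 had a mean of 8.44 CPM in controls and was at 4.63, 4.03, 4.40 and 7.70 CPM in LPL overexpression replicates 1 to 4. Its fold change and p thus depend on replicate 4, which is described below. A fold change above that of Ifi203 was seen in 7 of the 95. No test of the members against the lists was made, since the members were chosen on these values.

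**Figure D4:**
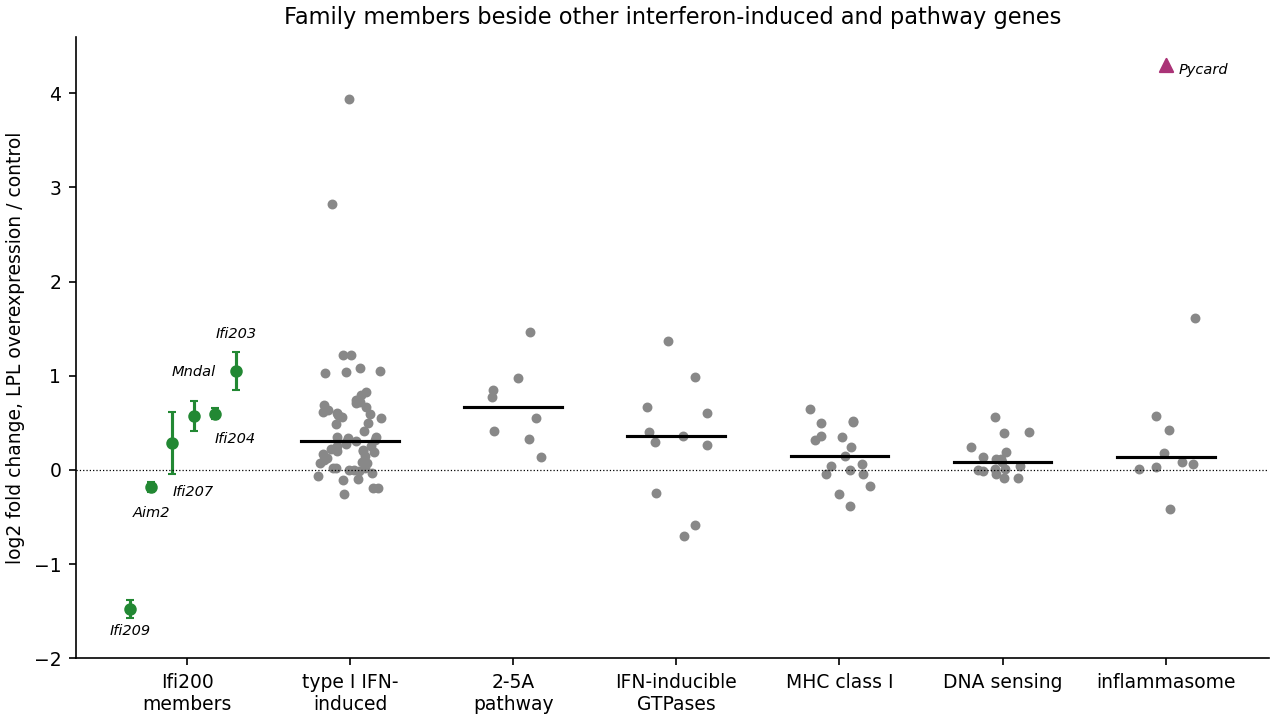
Log2 fold change, LPL overexpression over control, of the 6 members (green, bars are SE from the edgeR fit) and of the tested genes of 6 other lists (grey points, 1 per gene; black line, list median). The triangle marks Pycard, which had 0 control reads and whose fitted value lies off the scale; Ifi209 lies below every grey point.

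LPL overexpression replicate 4 differed from replicates 1 to 3 at a set of interferon-regulated genes, which was noticed in the data. Of all genes tested 57 (0.418%) were at least 1.5 times higher there than in the highest of the 3 others. They included 6 of 11 interferon-inducible GTPases (Gbp4, Gbp5, Igtp, Irgm1, Irgm2 and Tgtp1) and 5 of 20 receptor and signalling genes (Irf1, Irf8, Irf9, Socs1 and Socs3). At this cut they included none of the 6 members, none of the 59 type I interferon-induced genes and not Ifi211. Slfn2 and Usp18, of the type I list, lay just under the cut, while Ifit1 was not raised. Slfn2 was at 12.263, 12.13, 13.517 and 19.965 CPM in LPL overexpression replicates 1 to 4. The GTPase genes Iigp1 and Tgtp2, which were not tested, were also high in replicate 4. Iigp1 was at 0.203, 0.271, 0.238 and 2.698 CPM. Slfn2, Usp18, Ifit1, Iigp1 and Tgtp2 are named outside the naming rule. Irf1, a transcription factor gene of the interferon response, was at 22.2, 22.5 and 21.9 CPM in controls and at 19.2, 20.7, 21.9 and 286 CPM with LPL overexpression. In the same libraries Ifi204 was at 21.1, 20.7, 22.04 and 20.4 CPM, and Ifi209 at 2.96, 4.202, 3.09 and 3.38 CPM, so that replicate 4 lay within or next to the range of the others. Without replicate 4, Irf8 fell by 0.44 on the log2 scale (edgeR adjusted p = 3.06e-20) and Irgm1 rose by 0.39 (adjusted p = 1.02e-21), where neither passed edgeR's test with all 7 libraries (adjusted p = 0.631 and 0.137); with DESeq2 on all 7 libraries Irgm1 passed (adjusted p = 0.04935).

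**Figure D5:**
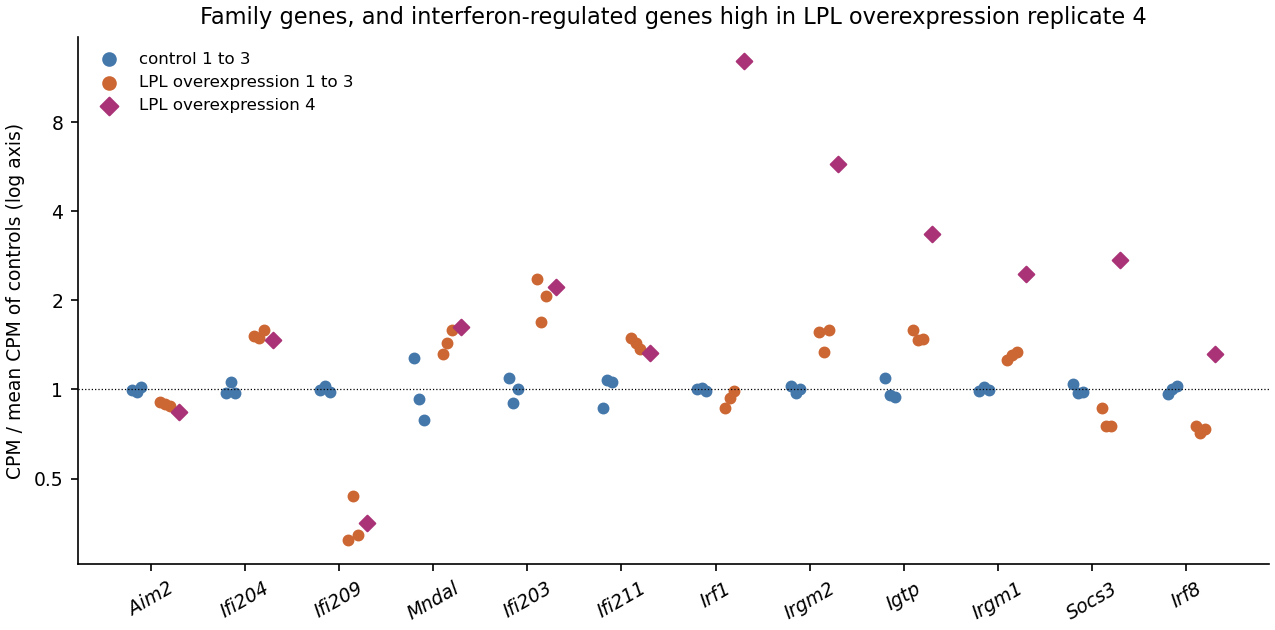
CPM in each library, divided by the control mean (log axis), of genes of the GTPase and signalling lists that were high in LPL overexpression replicate 4, beside 5 members and Ifi211. Replicate 4 leaves the other 3 LPL overexpression libraries at Irf1 and its companions and stays near them at the family genes.

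Genes whose pattern over the 7 libraries was most like that of a member were sought among non-members with a mean of at least 2 CPM, for the 4 members above that level. Across 7 libraries the highest Pearson correlations of log2 CPM were 0.997 for Ifi204 with Tyms (thymidylate synthase), 0.997 for Ifi209 with Cyb5r3 (a cytochrome b5 reductase), 0.996 for Aim2 with Anxa3 (an annexin) and 0.990 for Mndal with Steap2 (a metalloreductase). For Ifi204 another was Tollip (0.996), for Ifi209 Zfp691 (0.996) and Rassf9 (0.995), for Aim2 Rgs2 (0.992) and Acadm (0.988), and for Mndal Tmem55a (0.986) and Btrc (0.981). The likeness is of pattern and not of size, since Cyb5r3 differed by -0.20 and Ifi209 by -1.48 on the log2 scale. Because the points fall into the 2 groups, these values mostly restate the difference between groups, and no p is given.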

How the data were processed

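RNA of MS-1 cells was sequenced as 3 control and 4 LPL overexpression libraries of stranded total RNA. Per the submitters' processing notes, reads were handled with STAR and mm10; read length and how reads matching several genes were handled were not stated in these notes. The deposited tables give, per gene and library, whole-number counts of reads in each orientation and TPM values computed by the authors; the counts of the reverse (sense) orientation, about 97.0% to 97.1% of counted reads, and the TPM of that orientation were used. Family levels are the deposited TPM. Fold changes come from edgeR 4.0.16 (R 4.3.3): TMM normalisation, filterByExpr, quasi-likelihood test on genotype only, Benjamini-Hochberg adjustment over 13639 genes, threshold 0.05. CPM values are computed here from the counts with TMM-scaled totals. A script tested on simulated data recovered 38% of genes changed 1.1-fold, 82% of those changed 1.5-fold and 92% of those changed 2-fold, over 13639 genes. Depth sets the precision: floors and counting intervals (95%, exact) cover counting error only, since PCR copies of a molecule cannot be recognised in these reads. 

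The family members and all gene lists were chosen with earlier results of these data known. Named by rule were the members, the other family genes with a read, and genes within 200 kb with at least 10 reads. So were, per list, the 3 called genes with the lowest adjusted p and the 3 with the largest fold change. The rule also took the 3 genes most correlated with each member, and Lpl as the check of the labels. Casp1, Il18, Il1b, Gbp4, Cldn5, Ifi202b, Coro1a, Ptprc, Adgre1, Tyrobp, Cd52 and Cd3e are named outside this rule. Other genes named outside it are said to be so, and Irf1 and its companions were chosen after their values were seen. Exon overlaps and shared words come from GENCODE vM21, of which 43749 of 49585 gene rows had the same identifier, start and end, and promoters from RefSeq on GRCm38.p6. Alternatives were other size factors, no low-count filter, DESeq2 1.42.0, both orientations, limma 3.58.1 on log2(TPM + 0.5), a replicate block and leaving out each library. Of the family symbols listed, 5 had no gene row under that name. Some genes that the naming rule selects are not reported here.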

Additional observations from a re-analysis of the deposited data

Results flagged for a closer look

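In the 4 LPL overexpression libraries, 1 library lay further from the rest than Dixon's 95% limit at 7 of 56 genes examined. In each of the 7 it was the high value of replicate 4, at 286 CPM for Irf1, 39.8 CPM for Socs3, 79.7 CPM for Irf8, 213 CPM for Irgm1, 17.8 CPM for Irgm2, 8.71 CPM for Igtp and 4.10 CPM for Psmb9. Chance alone marks about 1 group in 20, but 7 of the 56 genes had been chosen because replicate 4 stood out in them, and 6 of the 7 marked genes are of these, so the share of marked genes cannot be set against that rate. The other marked gene was Psmb9. None of the 6 Ifi200 family members was marked. The cause of the high values in this library was not tested.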

How the results depend on the processing

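The direction of the 6 members' fold changes held in all 14 alternative fits, and the counts of members not overlapping between groups stayed at 3 higher and 2 lower. The log2 fold change ranged from -1.60 to -1.34 for Ifi209, 0.58 to 0.64 for Ifi204, -0.20 to -0.15 for Aim2, 0.44 to 0.79 for Mndal, 0.59 to 1.15 for Ifi203 and 0.02 to 0.51 for Ifi207. The lowest value of Ifi203, 0.59, came from limma on log2(TPM + 0.5), a scale that understates changes of low genes. With both orientations the control level of Aim2 was 20.8 TPM. With the longer ISRE motif, 0 member promoters matched. With no low-count filter, 2 other family genes rose, Ifi211 and Ifi205. Genes that fell on the DNA-sensing route numbered 0 with upper-quartile factors, DESeq2, limma and the replicate block, and 0 to 2 when 1 library was left out. Falling GTPase genes numbered 2 with no filter, DESeq2, limma and the replicate block, and 1 to 2 without 1 library. Falling receptor and signalling genes numbered 3 with the replicate block, which leaves out LPL overexpression replicate 4, and 0 to 3 without 1 library. Rising 2-5A genes numbered 5 to 8, with 5 without LPL overexpression replicate 3. Irf1 turned from 1.98 to -0.10 and Socs3 from 0.37 to -0.33 both with the replicate block and without LPL overexpression replicate 4, and over all fits without 1 library they ranged from -0.10 to 2.32 and from -0.33 to 0.57. Of 50 non-member genes followed 39 kept direction and call. The 11 that did not were Gbp2, Gbp3, Fcer1g (adjusted p = 0.136 with DESeq2), Oas3 (adjusted p = 0.0529 without control replicate 2) and the 7 chosen for replicate 4, Irf1, Socs3, Irf8, Irf9, Igtp, Irgm1 and Irgm2, of which Igtp and Irgm1 passed with DESeq2 on all 7 libraries (adjusted p = 0.0263 and 0.04935). Apart from the values linked above to replicate 4 or to a named filter or scale, the cause was not tested. Over all genes, rising genes were 50.75% of those called, and 61.3% with limma on TPM. Same-numbered libraries did not deviate together over all genes (correlation across genes -0.0042, -0.0446 and 0.00666). Most genes can carry counting noise, so this cannot decide whether the numbers pair the libraries, and the labels do not say. The replicate block gave 3010 rising and 2727 falling genes. Depth limits the genes with few reads, among the members Ifi207 first, with 34 reads over the controls and 55 over the LPL overexpression libraries.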
